A study of Mus musculus with 24 samples.

Results

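Cleared maternal mRNAs are the protein-coding transcripts that mouse oocytes held at a high level at metaphase II (MII) and that had lost most of that level by the late 1-cell stage (L1C), before the embryo's own genome is broadly active. They were chosen from the input libraries of the SLIM-seq experiment, SLIM-seq being an m6A immunoprecipitation for small samples whose input is the same kind of RNA not passed over the antibody. A member had a mean of at least 50 CPM (reads of the gene per 1e6 reads counted) over the 3 MII inputs and a mean of at most 1/6 of that level both in the 3 L1C inputs and in the 3 late 2-cell (L2C) inputs. The rule was met by 20 genes, out of 21974 protein-coding genes and 55471 genes in all. Among the 3219 mRNAs at 50 CPM or more in MII inputs, which are called abundant maternal mRNAs here, the 20 are 0.621%. Far more mRNAs reached that limit later: 679 abundant maternal mRNAs were at 1/6 or less of MII by L2C and 36 by L1C. Of the 679, 447 still had at least 1/2 of their MII level at L1C, and these late-cleared mRNAs served for comparison.

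The study followed m6A on mRNA across the maternal-to-zygotic transition. Wild-type B6D2F1 MII oocytes came from superovulated females of 8 weeks, 14 to 16 h after hCG, with cumulus cells removed. L1C and L2C embryos came from B6D2F1 matings and were cultured to 27 to 29 h and 48 to 50 h after hCG. Each stage has 3 IP and 3 input libraries. A second experiment has 3 libraries of L2C embryos given Cas13d mRNA at the zygote stage along with 3 crRNAs to *Ythdc1* (KD) and 3 of embryos given Cas13d mRNA alone (Ctrl), so a crRNA without a target was not part of the control. Oocytes and embryos were pooled in every library, so fewer contributing cells and less RNA per cell cannot be told apart. Total estimated counts ran from 18557483 to 38195381 in the inputs and from 11107421 to 39739950 in the IPs. All 12 oocyte markers on the list used were above 50 CPM at MII. The 24 cumulus and granulosa cell markers together came to 90.5 to 91.7 CPM in MII inputs, 61.4 to 62.0 CPM in L1C inputs and 285 to 299 CPM in L2C inputs. *Areg*, *Ereg* and *Ptx3* were at 0 in every MII input, and none of the 24 is a member.

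A growing oocyte stores mRNA because transcription stops before ovulation. Stored mRNAs often keep short poly(A) tails and are translated when cytoplasmic polyadenylation elements (CPE) near the 3′ end lengthen the tail, and maternal mRNAs are later deadenylated and degraded in waves at maturation, after fertilization and with zygotic transcription. m6A is a methyl mark on internal adenosines that is commonly placed in a GGACT-like context and read by YTH proteins, of which Ythdc1 is the nuclear member. According to the study's methods, cDNA was primed with oligo-dT. A lower value can therefore mean less RNA or a shorter poly(A) tail, and these cannot be told apart.

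The 3′ ends of 6 members carry a CPE, counted as TTTTAT or TTTTAAT on the mRNA strand, within the last 100 bases of the annotated transcript. The sites are shown because the CPE is the element through which stored oocyte mRNAs are known to be controlled. Sequences are from GRCm38 with GENCODE M21 transcripts, 5′ to 3′ on the mRNA strand, 30 bases each, with 1 CPE and any AATAAA poly(A) signal in capitals.
*H1foo*, chr6:115950157-115950186, plus strand: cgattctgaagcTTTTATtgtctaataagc
*Gdf9*, chr11:53437862-53437891, plus strand: gtggTTTTATgtgacggaagAATAAActgt
*Bub1b*, chr2:118641561-118641590, plus strand: tgtaTTTTATAATAAAatagtttttgttac
*Tnk2*, chr16:32683463-32683492, plus strand: gagaAATAAAgcttgtttctaTTTTATgtt
*Slc12a9*, chr5:137314586-137314615, minus strand: gtttgtgttttgTTTTATttttctaactac
*Lsr*, chr7:30957817-30957846, minus strand: gcttttatacttTTTTAATtggaatattga
*Lsr* has a further TTTTAT in the same window, in lower case. In *Gdf9* the CPE ends 10 bases before the poly(A) signal, in *Bub1b* the elements touch, and in *Tnk2* the CPE follows the signal. The share of members with such a match was 30%, against 24.1% of 3185 abundant maternal mRNAs with an annotated 3′UTR and 17.1% of 20693 protein-coding genes. Over whole 3′UTRs 12 of 20 members (60%) had a match, against 68.5% of abundant maternal mRNAs and 54.4% of protein-coding genes. *Mos*, a textbook case of an mRNA controlled by polyadenylation, had no match to these letters in its annotated 3′UTR. Its end reads as follows, with the poly(A) signal in capitals.
*Mos*, chr4:3870667-3870696, minus strand: tagggcatatttttaggaAATAAAgttacc

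The members had short 3′UTRs and were rich in G and C, neither of which the rule used. The 3′UTRs of the members had a median of 560 bases against 1061 over abundant maternal mRNAs, and 14 of 20 lay under that median. The 3′UTRs ran from 91 bases in *Lsr* to 2638 in *Foxred2*. An AU-rich TATTTAT was found in the 3′UTR of 1 member, *Srebf1*, against 30.5% of abundant maternal mRNAs, and a Pumilio-type TGTANATA in 3 (15.0%), against 27.4%. Members' 3′UTRs are shorter and have a higher median GC content, 48.6% against 43.6%, which leaves less room for such letters. Within the last 100 bases the AU-rich shares were 0% and 5.02%, and the Pumilio-type shares 5% and 5.21%. Exons of a member summed to a median of 4108.5 bases and whole gene spans to 21266.5 bases, against 5026 and 31399 over abundant maternal mRNAs. The annotated mRNA itself went the other way, with a median of 3499 bases against 3231, and 11 of 20 lay above that median. *Mos* has a single exon of 1449 bases that is its whole span, and *Tacc2* spans 187348 bases. The GC content of the annotated mRNA had a median of 55.7% (49.7% to 62.7%), and all 20 members were above the median of abundant maternal mRNAs, 49.5%.

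Base composition moved with the change of level in general. Split into 4 equal bins by GC content, the abundant maternal mRNAs had median L1C inputs of 89.3%, 77.2%, 63.8% and 55.2% of MII from the lowest GC to the highest. The lowest bins held no member, and the upper bins held 6 and 14. The gradient was steepest in L1C input replicate 1, from 101% in the lowest bin to 45.1% in the highest, while replicate 3 went from 80.0% to 60.6%. IP libraries went from 107% to 65.8%. The part of base composition in the members' levels was not tested.

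**Figure D1:**
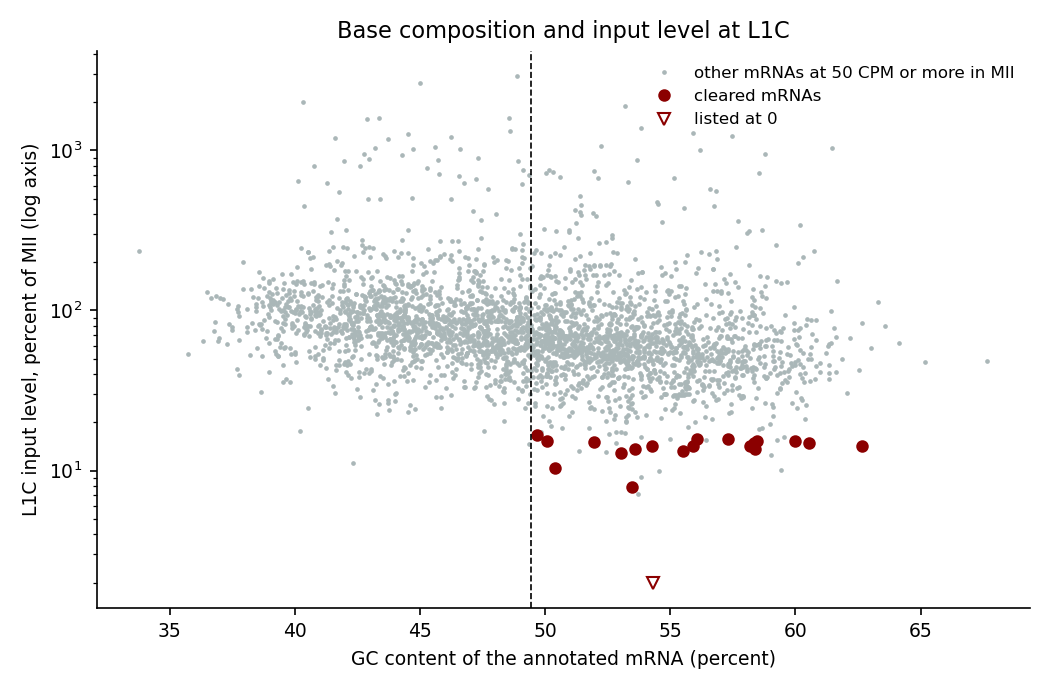
Each point is an mRNA at 50 CPM or more in MII inputs, with the GC content of its annotated transcript on the x axis in percent and its mean L1C input level in percent of MII on the y axis (log axis). The dashed line marks the median GC content of 49.5%, and all 20 cleared mRNAs, in red, lie to its right; *Tacc2*, listed at 0, is the open triangle.

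The levels in the inputs chose the members and are given without a test. The 20 mRNAs together held 18533 CPM at MII, 2515 CPM at L1C and 391 CPM at L2C. Reads of *H1foo*, *Gdf9* and *Bub1b* made up 86.7% of the MII sum. The median member stood at 14.3% of MII at L1C and 4.32% at L2C, against 70.3% and 42.4% over abundant maternal mRNAs. "Cleared" is a working name, since 19 of the 20 were still counted in every L1C input, *H1foo* at 1503 CPM on average. In L1C input replicate 1 the sum was 1993 CPM, and in replicates 2 and 3 it was 2854 and 2698 CPM.

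*H1foo* (chromosome 6, 115944938 to 115950236) encodes the linker histone of the oocyte, which somatic linker histones replace after fertilization. Its MII inputs held 9312, 10914 and 11438 CPM, its L1C inputs 1110, 1836 and 1561 CPM, and its L2C inputs 107, 106 and 104 CPM. No library of a stage reached into the range of another. Of 43 abundant mRNAs on the list of chromatin modifiers and histone variants it was the single member, and the list's median stood at 70.1% of MII at L1C. Members were 0.621% of all abundant maternal mRNAs, so at that share a list of such a size holds few or none.

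*Gdf9* (chromosome 11, 53431023 to 53437904), the growth factor through which the oocyte drives follicle growth and cumulus expansion, fell from 4637, 3953 and 3514 CPM at MII to 463, 495 and 602 CPM at L1C and to 80.3, 104 and 77.6 CPM at L2C. Its close relative and partner *Bmp15* stood at 126% of MII at L1C and 12.4% at L2C. Of the 37 abundant mRNAs on the list of zona, oocyte growth and fertilization genes, *Gdf9* was the single member and 19 were late-cleared. The subcortical maternal complex and oocyte NLRP genes had no member and 8 late-cleared among 14. Of all 3219 abundant maternal mRNAs, 447 were late-cleared.

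*Bub1b* (chromosome 2, 118598211 to 118641591), which encodes the spindle checkpoint protein BubR1, went from 1574, 1435 and 1414 CPM to 154, 145 and 163 CPM at L1C and to 40.6, 44.0 and 40.6 CPM at L2C. It was the single member among 30 abundant kinetochore and checkpoint mRNAs, whose median was 75.9% of MII at L1C. *Mos* (chromosome 4, 3870657 to 3872105), the kinase that keeps the egg arrested at MII through MAP kinase, went from 114, 144 and 146 CPM to 8.32, 12.4 and 11.2 CPM at L1C and to 4.16, 3.91 and 4.79 CPM at L2C. Of 26 abundant mRNAs for MII arrest, cyclins and the APC/C, it was again the single member.

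The other members are spread over many roles. Of the 20, 8 were on any function list, against 531 of 3219 abundant maternal mRNAs. The lists include broad families such as solute carriers and were chosen with earlier results of these data known. These counts are therefore a description only. Membrane transport is represented by *Slc12a9*, of the cation-chloride cotransporter family, and *Slc31a2*, a copper transporter of the CTR family. *Grn* (progranulin), *Vwa2* (a matrix protein) and *Furin*, the protease that cuts precursors of secreted proteins, act in or on the secretory pathway, and *Foxred2* acts in the endoplasmic reticulum. *Tnk2*, a cytoplasmic tyrosine kinase, *Unc5a*, a netrin receptor, and *Lsr*, a lipoprotein receptor of cell junctions, are signalling or surface proteins. *Srebf1* and *Nfkbiz* encode regulators of lipogenic and NF-κB target genes. *Abhd16a* is a lipid hydrolase, *Bin2* a membrane-bending protein, *Rpusd4* a pseudouridine synthase of mitochondria and *Fbxo10* a substrate receptor of SCF ubiquitin ligases. Their MII means ran from 626 CPM for *Abhd16a* to 52.1 CPM for *Furin*. None of 25 abundant mRNAs for deadenylation and RNA decay, and none of 11 for m6A writers, erasers and readers, was a member. With 0.621% of abundant maternal mRNAs being members, the lack of a member on lists of this size is near the background.

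From L1C to L2C the mean fell further for 16 members, and for 15 the highest L2C input was below the lowest L1C input. The same held for 69.5% and 61.6% of abundant maternal mRNAs, so the members' counts are not far above that background. *Nfkbiz* went from 23.3, 28.4 and 32.4 CPM at L1C to 2.34, 2.60 and 2.49 CPM at L2C. Another 3 were level: *Tnk2* held 17.9, 30.1 and 29.8 CPM at L1C and 25.7 to 27.03 CPM at L2C, *Slc12a9* 22.5 and 23.2 CPM on average, and *Fbxo10* 8.06 and 9.02 CPM. The 3 L2C ranges lay within or overlapped those of L1C. *Fbxo10* shares 4.61% of its span with *Polr1e* on the opposite strand, which rose from 10.8 to 238 CPM on average over the same step.

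**Figure D2:**
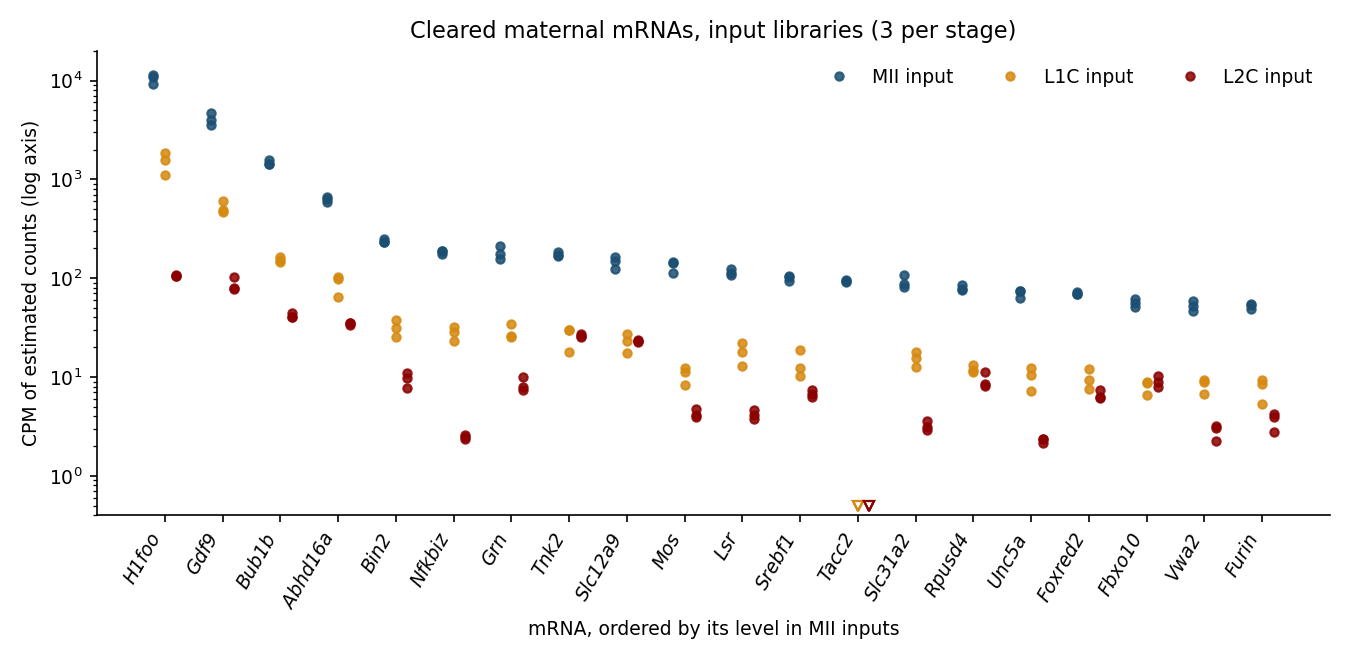
CPM of each cleared mRNA in each of the 3 input libraries of MII, L1C and L2C, on a log axis, ordered by MII level; open triangles are values listed at 0. The MII points lie above all L1C points for 20 of 20 mRNAs, and the L2C points lie below all L1C points for 15.

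*Tacc2*, a member of a family of centrosome and spindle proteins, stood apart. It held 91.2, 96.8 and 93.8 CPM in MII inputs and was listed at 0 in all 3 L1C and all 3 L2C inputs. Its span (chromosome 7, 130577438 to 130764785) lies wholly inside that of *Fgfr2* on the opposite strand, and *Fgfr2* was at 118 CPM at MII, 1629 CPM at L1C and 482 CPM at L2C. The L1C IPs held 35.0, 22.6 and 29.1 CPM of *Tacc2*. In the Ctrl embryos, at L2C, its exons held 392, 348 and 259 counts, or 26.9 to 29.8 CPM of exon counts, and those of *Fgfr2* 21, 15 and 16 counts. By exon counts *Tacc2* was thus present in Ctrl embryos at the stage at which the inputs list it at 0. The results below are therefore also given for the other 19 members.

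The members near the thresholds show how sharp the rule is. *Slc31a2*, *Vwa2* and *Grn* were at 16.6%, 15.9% and 15.6% of MII at L1C, and *Tbc1d8*, *Blvra* and *Nfrkb*, just outside, at 17.1%, 17.3% and 17.5%. For L2C, *Fbxo10*, *Slc12a9* and *Tnk2* were inside at 16.0%, 15.9% and 15.0%, and *Arrdc2*, *Slc44a2* and *Atat1* outside at 19.4%, 21.2% and 22.7%. At the MII minimum *Furin*, *Vwa2* and *Fbxo10* were inside at 52.1, 52.6 and 56.5 CPM, and *Jph3*, *Lrrtm3* and *Cbfa2t3* outside at 41.7, 35.8 and 26.0 CPM. Without L1C input replicate 1 the rule gave 15 members, without *Furin*, *Lsr*, *Slc12a9*, *Tnk2* and *Vwa2*. With library sizes scaled by TMM it gave all 20 and 11 more.

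At MII the cleared mRNAs were for the most part lower in IP than in input. The quasi-likelihood test of edgeR, fitted over all 18 libraries and 21950 genes, called 18 of 20 lower and 0 higher at an adjusted p under 0.05, and 17 of 19 without *Tacc2*. The background was high: 21.0% of all genes tested and 49.8% of abundant maternal mRNAs were called lower. Of all genes tested 17.7% were called higher, and of abundant maternal mRNAs 17.5%. With all 18 libraries fitted, none of the members was higher at an unadjusted p under 0.05 in edgeR, or at an adjusted p under 0.05 in DESeq2. The median log2 IP/input was -1.01 over the members, -0.35 over abundant maternal mRNAs and -0.22 over late-cleared mRNAs, of which 195 of 447 were lower. In the bin of highest GC the median was -0.67 and 59.8% were lower. The MII inputs of this contrast also took part in choosing the members, and the threshold at MII favours high input values. For 17 members the highest IP was below the lowest input, against 45.8% of abundant maternal mRNAs.

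*Fbxo10* was the furthest down, with 7.37, 8.47 and 5.60 CPM in MII IPs against 55.9, 62.0 and 51.5 CPM in MII inputs (log2 -3.21, SE 0.18, edgeR adjusted p 8.76e-11). *Vwa2* held 10.3, 10.5 and 9.21 CPM in IPs against 46.7, 58.6 and 52.6 CPM in inputs (log2 -2.62, SE 0.19, edgeR adjusted p 2.36e-09). *Bub1b* held 544, 591 and 547 CPM in IPs, a log2 of -1.63 (SE 0.12, edgeR adjusted p 2.03e-09). Those groups are far apart. The abundant mRNAs *Gdf9* and *H1foo* were lower by less, at -0.95 (SE 0.18) and -0.67 (SE 0.15), with edgeR adjusted p of 0.000364 and 0.00133.

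*Furin* and *Mos* were the exceptions. *Furin* held 71.1, 80.6 and 76.4 CPM in MII IPs against 48.6, 53.4 and 54.2 CPM in inputs, so that every IP was above every input, yet the difference missed the threshold (log2 0.31, SE 0.23, edgeR adjusted p 0.326). With only the 6 MII libraries in the fit it was called higher, at 0.36. *Mos* held 137, 144 and 161 CPM in IPs against 114, 144 and 146 CPM, and the groups overlap (log2 -0.10, SE 0.15, edgeR adjusted p 0.637). A looser rule after that of the study, with an unadjusted P under 0.05, log2 IP/input above 0 and more than 1 count in each input, was met by none of the 20 in the edgeR fit over 18 libraries. The study set its rule on DESeq2 output with further criteria, and that full rule was not applied here.

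The letters GGACT, a common m6A context, occurred in 18 of 20 annotated mRNAs, against 93.2% of abundant maternal mRNAs, with a median of 1.11 per kb against 1.02. *H1foo* and *Bin2* had none, and *Mos*, *Furin*, *Fbxo10* and *Vwa2* had 2, 3, 7 and 7. The copy nearest the stop codon is shown for these 4, the former pair not called lower and the latter pair furthest down, with GGACT in capitals.
*Mos*, chr4:3871656-3871685, minus strand: cctcgggctcccGGACTgccacgccggctg
*Furin*, chr7:80390756-80390785, minus strand: ggagtgcccatcGGACTcagaggaggacga
*Fbxo10*, chr4:45035753-45035782, minus strand: tcggctgcctggGGACTaagaaccaggttc
*Vwa2*, chr19:56910656-56910685, plus strand: caagagcctgcaGGACTacaagggccaacc
A match is a stretch of letters and not a mapped m6A site, since the libraries give 1 value per gene.

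**Figure D3:**
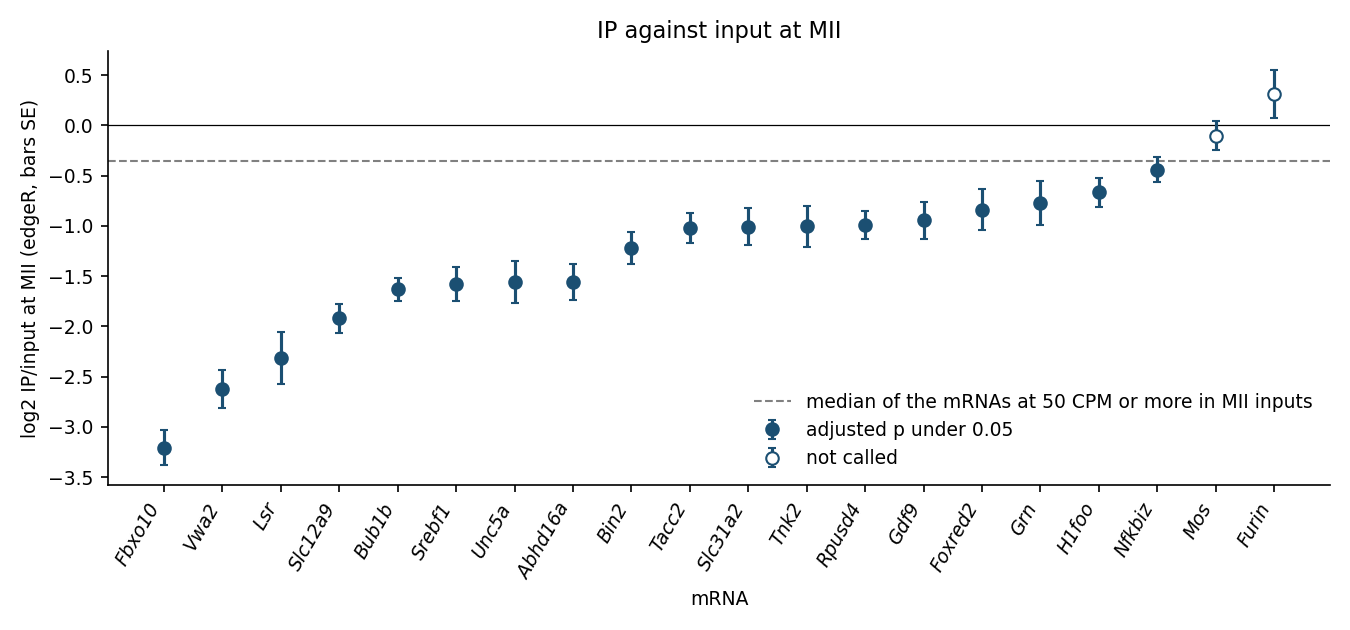
log2 IP/input at MII for each cleared mRNA, with bars of 1 SE from edgeR over all 18 libraries. Filled points passed an adjusted p under 0.05, and the dashed line is the median of abundant maternal mRNAs, -0.35; 18 points are filled and lie below 0, *Mos* and *Furin* are open.

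The IP libraries took no part in the choice of members, although the study made them from the same batches of RNA as the inputs. A lower IP level can mean less RNA or less m6A on it, and these cannot be told apart here. The members were chosen for less input RNA over the same steps, so lower IPs are no separate evidence on m6A. The IPs of L1C were compared with the IPs of MII over 20975 genes. All 20 members were called lower in IP at L1C (edgeR adjusted p under 0.05), and 19 of 19 without *Tacc2*, where 21.6% of all genes and 58.8% of abundant maternal mRNAs were called lower, and 30.2% and 12.8% higher. The median log2 change was -2.21, against -0.50 over abundant maternal mRNAs and 0.19 over all genes tested, and 257 of 447 late-cleared mRNAs were called lower. In the bin of highest GC 74.4% were lower, with a median of -0.80. For every member the lowest MII IP was above the highest L1C IP, as for 51.4% of abundant maternal mRNAs.

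*Mos* went down most, from 137, 144 and 161 CPM in MII IPs to 16.3, 15.5 and 20.6 CPM in L1C IPs (log2 -3.27, SE 0.15, edgeR adjusted p 9.24e-08), followed by *Bub1b*, at 88.4, 83.1 and 78.1 CPM in L1C IPs (log2 -2.95, SE 0.14, edgeR adjusted p 1.03e-07). *H1foo* went from 7613, 7486 and 8377 CPM to 1346, 1196 and 1671 CPM (log2 -2.67, SE 0.15, edgeR adjusted p 2.20e-07). Other than *Tacc2*, at -1.12, the smallest changes were those of *Vwa2*, *Lsr* and *Slc31a2*, at -1.69, -1.70 and -1.89. The median member kept 24.6% of its MII level in L1C IPs and 14.3% in L1C inputs, the latter being the value the rule limited.

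By L2C the IPs were lower still. Against MII IPs, 19 of 20 members were called lower (18 of 19 without *Tacc2*), with a background of 38.6% of all genes and 76.6% of abundant maternal mRNAs called lower, and 44.7% and 14.2% called higher. The median log2 change was -4.78, against -1.52 over abundant maternal mRNAs and -3.53 over late-cleared mRNAs, and it was -4.75 without *Tacc2*. *Tacc2* was listed at 0 in the L2C IPs and passed the filter on low counts only through earlier stages, and no fold is given for it because *Fgfr2*, within whose span it lies, was at 444 CPM there. Every L2C IP was below every MII IP for 19 members, against 67.6% of abundant maternal mRNAs. *H1foo* ended at 76.3, 77.6 and 74.1 CPM (log2 -7.16, SE 0.18, edgeR adjusted p 4.18e-11), and *Mos* at 2.92, 2.70 and 2.36 CPM (log2 -6.25, SE 0.18, edgeR adjusted p 6.40e-11). *Fbxo10* was the exception. Its IPs held 7.37, 8.47 and 5.60 CPM at MII, 2.06, 2.16 and 2.16 CPM at L1C and 14.0, 11.8 and 12.9 CPM at L2C. The last were above the MII IPs in every library, and the change of 0.37 (SE 0.20) missed the threshold, with an edgeR adjusted p of 0.0978. It was called higher by DESeq2 (0.62), with DESeq2 size factors (0.62) or library size alone (0.85) in edgeR, and without MII IP replicate 2 (0.51). *Polr1e*, which overlaps it, averaged 15.7, 12.6 and 262 CPM in the same IPs.

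**Figure D4:**
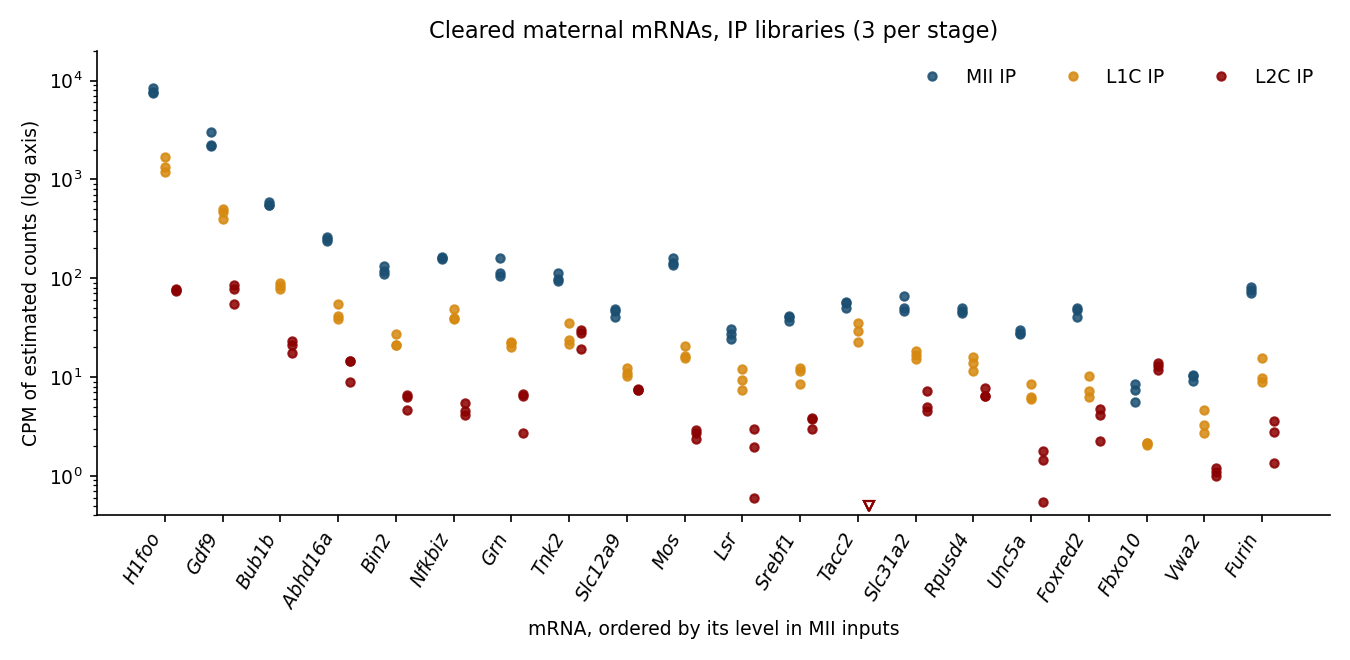
CPM of each cleared mRNA in each of the 3 IP libraries of MII, L1C and L2C, on a log axis, in the same order as for the inputs; open triangles are values listed at 0. The L1C points lie below all MII points for 20 of 20 mRNAs, and the L2C points for 19, *Fbxo10* being the exception.

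In the *Ythdc1* experiment the targeted mRNA was lower in the embryos labelled KD. It held 498, 521 and 493 CPM of the merged count table in KD and 1114, 1138 and 1048 CPM in Ctrl, which is a change of -1.0 on the log2 scale (SE 0.06, edgeR adjusted p 1.34e-10). The merged table ends on chromosome 7, as does the file of KD replicate 3, so 8 members can be read in 3 against 3 libraries. The other 12 have KD replicates 1 and 2 only. The members are read here from exon counts at L2C, and maternal mRNA left from the egg and new transcripts cannot be told apart.

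Of the 8 members in the table, 6 passed the filter on low counts, and 4 were called lower and 0 higher in KD (edgeR adjusted p under 0.05). The background was 37.4% of the 7433 genes tested lower and 33.5% higher, and 42.7% and 31.6% among abundant maternal mRNAs. None of the 6 was higher at an unadjusted p under 0.05 in edgeR, or at an adjusted p under 0.05 in DESeq2. *Fbxo10*, which the filter left out, was called higher in the fit without a filter. *Furin* (chromosome 7, 80388585 to 80405436) had 5, 1 and 1 exon counts in KD against 58, 43 and 36 in Ctrl (log2 -4.10, SE 0.48, edgeR adjusted p 5.57e-07). It passed the filter through the Ctrl libraries alone, so it could enter the test only as lower in KD, and without it 3 of 5 were called lower. *H1foo* held 352, 346 and 396 counts in KD against 727, 673 and 543 (log2 -0.71, SE 0.11, edgeR adjusted p 8.09e-06). *Slc12a9* and *Slc31a2* changed by -0.77 (SE 0.22) and -0.70 (SE 0.25), with edgeR adjusted p of 0.00395 and 0.0182, and the latter lost the call without KD replicate 1 and without Ctrl replicates 1 or 2. *Bub1b*, at 280, 245 and 375 counts against 366, 343 and 250, changed by 0.02 (SE 0.10), and *Mos* by -0.16 (SE 0.26). Both missed the threshold.

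Over the whole annotation, with KD replicates 1 and 2 against the 3 Ctrl libraries, 16 members passed the filter, 9 were called lower and 2 higher, and the other 5 missed the threshold. Without *Tacc2* the counts are 8 and 2 of 15. Some calls were not firm: DESeq2 called 8 of the 16 lower, *Slc31a2* losing its call. In edgeR *Slc31a2* also lost its call without KD replicates 1 or 2 or Ctrl replicates 1 or 2. *Slc12a9* lost its call without KD replicate 2 and without Ctrl replicate 2. *Furin*, *Vwa2* and *Srebf1* passed only through the Ctrl libraries, so a count over those tested leans toward lower values in KD, and without these 3 members 7 of 13 were called lower and 2 higher. The background was 36.4% of 17074 genes lower and 30.5% higher. Among abundant maternal mRNAs 39.9% were lower and 28.6% higher, and among late-cleared mRNAs 251 of 435. The share of members called lower is thus near that of the late-cleared mRNAs and not far above that of all genes. The median log2 change was -0.69 over the 16 members and -0.44 over the 13, with -0.61 over late-cleared and -0.11 over abundant maternal mRNAs.

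*Gdf9* held 466 and 438 counts in KD against 1510, 1411 and 1002 in Ctrl, or 41.4 and 45.6 CPM against 104, 109 and 115 CPM (log2 -1.26, SE 0.10, edgeR adjusted p 3.35e-08). The groups do not overlap. Of the other 36 abundant mRNAs on its list, of which 19 are late-cleared, 29 were lower and 3 higher in KD. The background was 39.9% lower and 28.6% higher among abundant maternal mRNAs, and 251 of 435 late-cleared mRNAs were lower. *Abhd16a*, at 43 and 33 counts against 109, 109 and 85, changed by -1.15 (SE 0.24, edgeR adjusted p 0.000468). *Vwa2* held 0 and 3 counts against 28, 44 and 11, a ratio of pooled libraries of 0.0626 with an exact 95% interval of 0.0127 to 0.189 that covers counting error only. *Tacc2* changed by -0.44 (SE 0.12, edgeR adjusted p 0.00434) and *Bin2* by -0.85 (SE 0.24, edgeR adjusted p 0.00492), a call that was lost without KD replicate 1.

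*Rpusd4* and *Tnk2* went the other way. *Rpusd4* (chromosome 9, 35267865 to 35277731) held 155 and 130 counts in KD against 69, 64 and 34 in Ctrl, or 13.8 and 13.5 CPM against 4.76, 4.95 and 3.91 CPM (log2 1.65, SE 0.20, edgeR adjusted p 2.81e-06). *Tnk2* held 15.4 and 16.0 CPM against 11.4, 10.4 and 11.0 CPM (log2 0.60, SE 0.15, edgeR adjusted p 0.00263). *Tnk2* is also one of the members that stayed level from L1C to L2C. The members called neither way were *Bub1b*, *Mos*, *Grn*, *Foxred2* and *Srebf1*, with log2 changes from -1.08 (SE 0.56) for *Srebf1* to 0.29 (SE 0.43) for *Grn*.

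*Nfkbiz*, *Unc5a*, *Lsr* and *Fbxo10* did not pass the filter. *Nfkbiz* held 0 and 1 counts in KD against 9, 8 and 7 in Ctrl, and *Unc5a* 0 and 1 against 8, 5 and 4. *Lsr* held at most 1 count in each library. *Fbxo10* held 17, 8 and 14 counts in the 3 KD libraries against 1, 8 and 1 in Ctrl, or 3.87, 2.15 and 2.57 CPM of the merged table against 0.183, 1.65 and 0.305 CPM, and per depth the groups do not overlap. With no filter on low counts edgeR called it higher in KD, by 2.04 (SE 0.62, adjusted p 0.0026) in the merged table and by 2.11 (SE 0.72, adjusted p 0.00797) over the whole annotation. It passed the filter in 5 of the fits with a library left out of the merged table, through KD libraries alone, so that it could enter these only as higher in KD, and they are no support for its direction. Without the filter *Nfkbiz* was called lower over the whole annotation (edgeR adjusted p 0.0109), and *Unc5a* and *Lsr* missed the threshold.

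**Figure D5:**
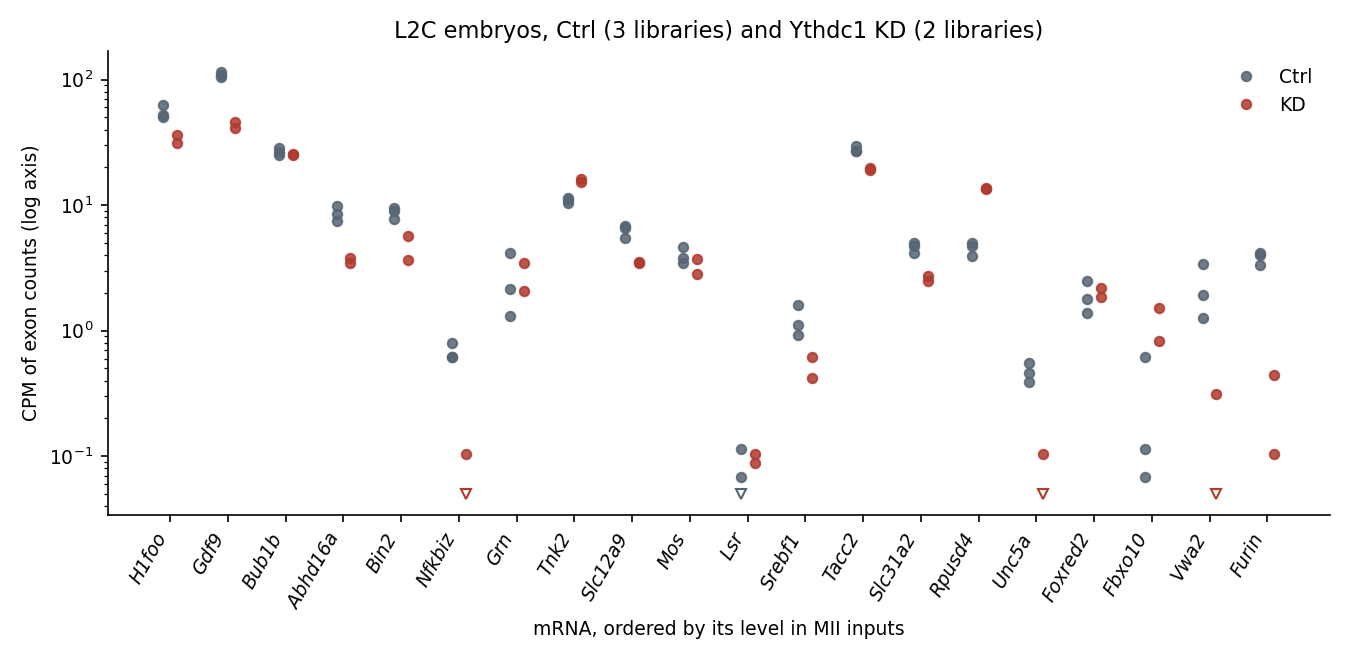
CPM of exon counts of each cleared mRNA in L2C embryos, on a log axis, in the 3 Ctrl libraries and KD replicates 1 and 2; open triangles are values of 0. *H1foo*, *Gdf9*, *Abhd16a*, *Bin2*, *Nfkbiz*, *Slc12a9*, *Srebf1*, *Tacc2*, *Slc31a2*, *Unc5a*, *Vwa2* and *Furin* are lower in both KD libraries than in every Ctrl library. *Rpusd4*, *Tnk2* and *Fbxo10* are higher in both, and the other members overlap.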

How the data were processed

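For SLIM-seq, the values deposited are estimated counts, which the authors obtained with kallisto over whole gene spans, introns included, so genes with overlapping spans can share reads; no spike-in is described for the sequenced libraries (the study spiked RNA into a separate qRT-PCR test), so levels are relative. Deposited TPM values from the same runs served for 1 alternative. For the *Ythdc1* experiment the authors deposited raw counts on exons (Trimmomatic, HISAT2, featureCounts), with no strand setting in the file header. The labels name a stranded kit for total RNA, the methods oligo-dT priming after Smart-seq2, and it is not known which holds. Genome positions are GRCm38, gene types and transcripts GENCODE M21, and 241 of 55471 genes had no entry there.

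CPM is the estimated count over the column sum. Estimated counts were rounded and fitted in edgeR 4.0.16 (R 4.3.3) with TMM, filterByExpr and the quasi-likelihood test, adjusted by Benjamini-Hochberg over all genes: 18 libraries together for IP against input, 9 IPs together between stages, KD against Ctrl apart, on the merged table and on the whole annotation. On simulated counts with 200 changed genes the edgeR fits called 100 of 100 genes changed 4-fold in each of 4 comparisons, and of 100 changed 2-fold 57 for IP against input, 48 for L1C against MII IPs, 63 for KD in the merged table and 39 over the whole annotation (20523, 20137, 7142 and 16154 genes). The changed genes were drawn from well-counted genes, every gene was given the same spread, and all other genes were left unchanged. In the data many genes differed and some members had few counts, so these numbers do not describe those members. Alternatives were DESeq2 1.42.0, other scalings, no filter, other thresholds and members, the replicate number as a block, and each library left out. Samples of a group are not stated to be separate animals, so p-values measure the spread between these libraries. Same-numbered libraries did not deviate together (r from -0.17 to 0.098). For each gene the transcript was the APPRIS principal one, the longest on ties. Members and lists were chosen with earlier results of these data known, so no test here is independent of that choice. Genes were named by a fixed rule: the 12 members highest at MII, the 8 lowest at L1C relative to MII, members on a function list, the 3 with the smallest P in each direction of each test, and the 3 on either side of each threshold. The remaining members and *Bmp15*, *Fgfr2* and *Polr1e* were named after their values were seen.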

Additional observations from a re-analysis of the deposited data

How the results depend on the processing

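The number of cleared mRNAs depends on the thresholds: 20 became 31 with library sizes scaled by TMM, 37 with TPM, 59 at 1/4 of MII and 3 at 1/8 (*Bub1b*, *Mos* and *Tacc2*), and 12 with at least 100 CPM at MII. Leaving out single inputs gave 15 to 24. Their median length is 21266.5 bases as a gene span and 4108.5 as exons. The number called lower in IP at MII was 17 to 18 with a library left out, 12 with an unadjusted P under 0.05 and a log2 change over 1, and 0 under the looser rule after that of the study, which counts higher values only. In the fit of 6 MII libraries 1 member, *Furin*, was called higher. By that same unadjusted rule 1 member was lower in KD in the merged table and 4 over the whole annotation. The merged table itself gave 4 against 9, since it holds 6 tested members. With a library left out the calls lower were 20 to 20 at L1C and 19 to 19 at L2C in IP, and 3 to 4 and 7 to 9 in KD. The numbers do not pair the libraries, and with the replicate block the calls lower were 18, 20, 19, 4 and 9, as without it. Scaling to library size alone moved the median of all genes in IP against input at MII from 0 to 0.20, at L1C against MII in IP from 0.19 to 0.39 and at L2C from 0.25 to 0.72, and ended the call of *Nfkbiz* in IP against input. *Fbxo10* was called higher in L2C than in MII IPs under DESeq2 (0.62), DESeq2 size factors (0.62), library size alone (0.85) and without MII IP replicate 2 (0.51). No called change of a member turned its direction under these alternatives. Leaving *Tacc2* out, and the fit of 6 MII libraries with a block, were chosen after seeing the data. For *Lsr*, with at most 1 exon count per library, the direction could not be read. Its ratio of pooled KD to pooled Ctrl libraries was 1.73, with an exact 95% interval of 0.126 to 23.9 that covers counting error only.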
